A study of Canis lupus familiaris with 6 samples.

Results

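The genes described here build peptides for MHC class I molecules, load them, or switch that machinery on. They were taken by gene symbol from a list of 10: B2M, TAP1, TAP2, TAPBP, PSMB8, PSMB9, PSMB10, NLRC5, ERAP1 and PDIA3. Of the 31512 genes in the table, 7 carried one of these symbols, and all 7 passed the filter of a mean of at least 1 FPKM (fragments per kilobase of gene length divided by a library size) over the dogs. No row carried the symbols TAP2, PSMB8 or PDIA3, so these 3 genes were not analysed by name. The 3 dog class I genes with a symbol of their own, DLA88, DLA-12 and DLA-79, are shown beside them, and DLA-64 had no row of that name.

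Whole blood was drawn on day 30 from adult, healthy Beagle dogs, and 1 RNA library was made per dog. The snack of the 3 CPP-Se dogs held CPP-Se, in which selenium is chelated by casein phosphopeptides (phosphorylated fragments of milk casein), and that of the 3 control dogs did not. Both groups ate the same maintenance food and came from 1 breed. The comparison asked which transcripts of circulating blood differed after the supplement.

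Almost every nucleated cell shows fragments of its own proteins to CD8+ T cells on MHC class I molecules. Proteasomes cut the proteins, the TAP transporter carries the peptides into the endoplasmic reticulum, aminopeptidases trim them, and tapasin with its partners holds the empty class I heavy chain, paired with beta-2-microglobulin, until a peptide fits. Interferon gamma and the regulator NLRC5 raise many of these genes together, and the immunoproteasome subunits replace their constitutive counterparts in the catalytic chamber.

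The libraries held 6598173 to 8067034 reads on genes, recovered from the FPKM values. Hemoglobin genes took 36.6% of the reads in CPP-Se replicate 2 and 48.7 to 55.9% in the other dogs. The library size by which the deposited FPKM were divided, recovered from the same values, was 1.65 times the reads on genes in CPP-Se replicate 2 and 0.882 to 1.05 times in the other dogs. CPP-Se replicate 2 was thus divided by a larger size for its reads on genes than the others. Its FPKM summed to 303449, beside 458774 to 540009. Pan-leukocyte genes gave this dog a scaling factor of 0.936, beside 0.954 and 0.956 in the other CPP-Se dogs. Median ratios, which level the dogs on the median gene, gave a median log2 fold change over all tested genes of -0.0024, beside -0.0043 as deposited. Results that depend on the scale are also given after rescaling each dog to a common sum. The sums of the marker lists for T cells, NK and cytotoxic cells and B cells were higher in every CPP-Se dog than in every control dog, and the monocyte sum was lower, except that the B cell sums overlapped after rescaling to a common sum. In bulk blood, fewer cells of a type and less RNA per cell cannot be told apart, and this holds for every value below.

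None of the 7 peptide loading genes passed the threshold between CPP-Se and control dogs, which was a Benjamini-Hochberg adjusted p below 0.05 in limma with a fold change of at least 1.5. Their adjusted p-values ran from 0.484 to 0.846, against a background in which 0.0305% of the 9847 tested genes passed. At an unadjusted p below 0.05 the count was also 0 of 7, where 16.0% of all tested genes passed, 6.87% with higher and 9.10% with lower values in CPP-Se dogs. CPP-Se means lay above the control means for PSMB9, PSMB10, NLRC5 and TAP1 and below them for B2M, ERAP1 and TAPBP. The median log2 fold change of the 7 genes was 0.10, beside -0.0043 over all tested genes. That median was 0.25 with a common sum, beside 0.13 over all tested genes, and 0.10 with median ratios, beside -0.0024. It turned to -0.032 without control replicate 3 and -0.079 without CPP-Se replicate 1. With 3 dogs a group these intervals were wide, and differences of the sizes given below for each gene could not be told from 0.

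**Figure D1:**
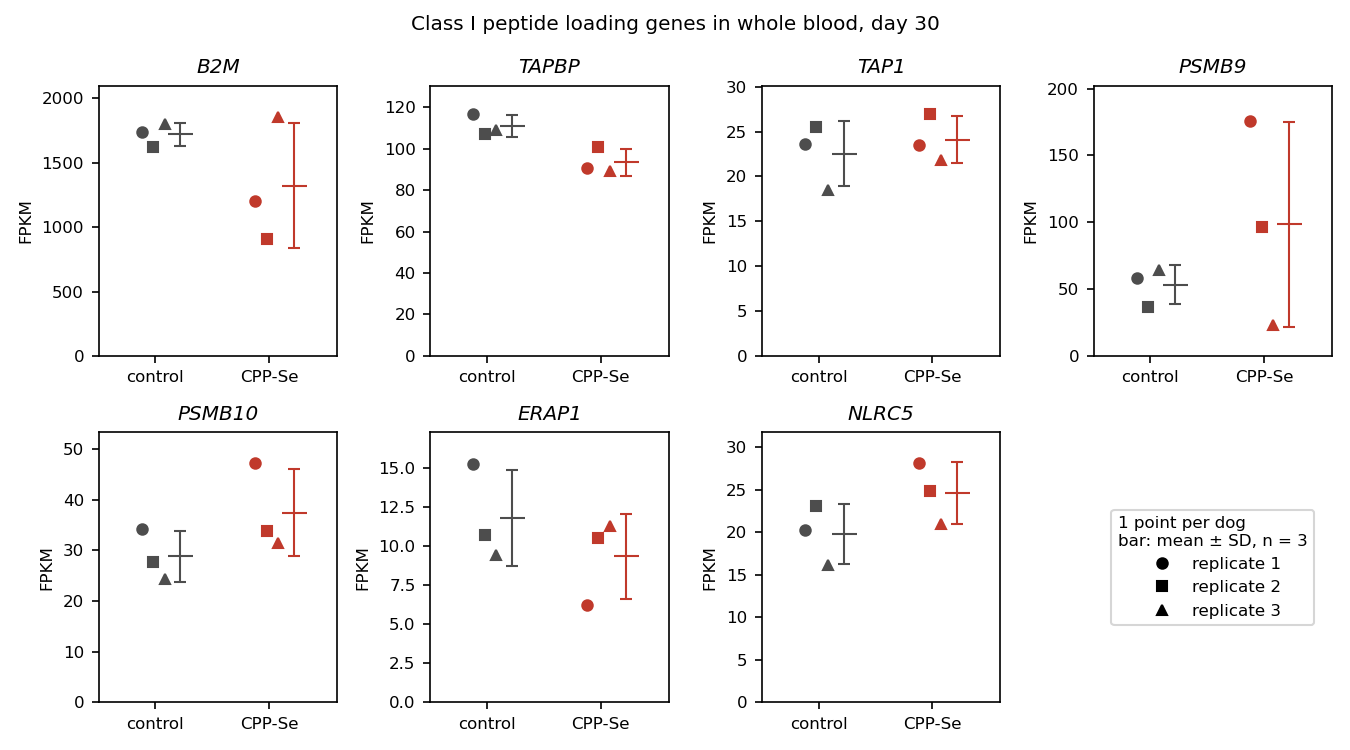
FPKM of the 7 class I peptide loading genes (y axis, from 0, a scale of its own for each gene) in each of 3 control and 3 CPP-Se dogs; 1 point is 1 dog, and the bar beside the points is the mean with the SD. On the deposited scale the 2 groups overlap for every gene except TAPBP, and PSMB9 in CPP-Se dogs spreads from 22.8 to 176 FPKM.

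The genes stood at very different levels per length. B2M led at a mean of 1522 FPKM over the 6 dogs, followed by TAPBP at 102, PSMB9 at 75.8, PSMB10 at 33.1, TAP1 at 23.3, NLRC5 at 22.2 and ERAP1 at 10.6 FPKM. B2M alone held 75.5 to 90.4% of the summed FPKM of the 7 genes. It lay above TAPBP in 6 of 6 dogs, PSMB10 lay above TAP1 in 6 of 6, and NLRC5 lay above ERAP1 in 6 of 6. The order of PSMB10 and TAP1 holds per length only. PSMB10 had 176 to 448 reads per dog over a gene length of 996 bases, and TAP1 1090 to 2933 reads over 8170 bases. Each other neighbouring pair in this order kept its order in 5 of 6 dogs. CPP-Se replicate 1 was the exception for TAPBP over PSMB9 and for TAP1 over NLRC5, and CPP-Se replicate 3 for PSMB9 over PSMB10.

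Among the immunoproteasome subunits, PSMB9 spread more within the CPP-Se group than between the groups. The gene (ENSCAFG00000030725, chromosome 12, 2432505 to 2438069, Ensembl release 100 of the dog genome) encodes the catalytic subunit that replaces PSMB6. It measured 58.6, 36.9 and 64.4 FPKM in control replicates 1, 2 and 3 and 176, 96.5 and 22.8 FPKM in CPP-Se replicates 1, 2 and 3. The highest and the lowest of the 6 dogs were both in the CPP-Se group, 7.72-fold apart, so the control dogs lay within the CPP-Se range. Group means were 53.3 ± 14.5 and 98.4 ± 76.6 FPKM (SD, n = 3), and the log2 fold change was 0.49 (SE 0.66, 95% interval -1.04 to 2.03; limma adjusted p = 0.758). These values rested on 115 to 1062 reads per dog. Only 2.17% of tested genes had a larger within-group SD on the log2 scale than the 1.09 of PSMB9. Its direction turned with 1 dog: the log2 fold change was -0.13 without CPP-Se replicate 1 and 1.31 without CPP-Se replicate 3 (limma adjusted p = 0.190).

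PSMB10 (ENSCAFG00000020333, chromosome 5, 81561056 to 81563564) encodes the subunit that replaces PSMB7. It measured 34.3, 27.7 and 24.4 FPKM in control dogs and 47.2, 33.7 and 31.3 FPKM in CPP-Se dogs. Control replicate 1 lay above CPP-Se replicates 2 and 3, so the groups overlapped. The means were 28.8 ± 5.05 and 37.4 ± 8.55 FPKM (SD, n = 3), a log2 fold change of 0.36 (SE 0.22, 95% interval -0.16 to 0.88; limma adjusted p = 0.484). It was 0.18 without CPP-Se replicate 1, and the groups overlapped with a common sum, with or without hemoglobin, but not with pan-leukocyte scaling, where 16.6% of all tested genes were apart with higher values in CPP-Se dogs.

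Within a dog, the immunoproteasome subunits were also set against the constitutive subunits they replace, as the log2 ratio of FPKM. For PSMB9 over PSMB6 the ratio was 1.13, 0.61 and 1.49 in control dogs and 1.89, 1.61 and -0.31 in CPP-Se dogs. CPP-Se replicate 3 was the only dog in which PSMB6 stood above PSMB9. Mean ratios of 1.08 ± 0.44 and 1.06 ± 1.20 (SD, n = 3) differed by -0.012 (two-sided exact permutation p = 1.00). This difference was -0.43 without CPP-Se replicate 1 and 0.67 without CPP-Se replicate 3. PSMB6 itself measured 26.7, 24.2 and 23.0 FPKM in control dogs and 47.4, 31.7 and 28.2 FPKM in CPP-Se dogs, with no overlap in a direction found for 10.4% of all tested genes. Its log2 fold change was 0.49 (limma adjusted p = 0.346), and 0.27 without CPP-Se replicate 1. The ratio of PSMB10 to PSMB7 averaged 0.58 ± 0.18 and 0.75 ± 0.23 on the log2 scale (SD, n = 3), a difference of 0.17 (exact permutation p = 0.3), which was 0.077 without control replicate 2 and 0.31 without CPP-Se replicate 3. Over the 6 ratio pairs compared, the smallest p that 3 against 3 dogs allow is 0.1, so no pair could pass 0.05.

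The transporter and its dedicated chaperone varied less on the deposited scale. TAP1 (ENSCAFG00000000832, chromosome 12, 2378126 to 2432303), a subunit of the transporter that pumps peptides into the endoplasmic reticulum, measured 23.6, 25.5 and 18.5 FPKM in control dogs and 23.5, 26.9 and 21.8 FPKM in CPP-Se dogs. The groups overlapped, and the lowest value was in control replicate 3. The log2 fold change was 0.10 (SE 0.19, 95% interval -0.35 to 0.54; limma adjusted p = 0.846), and it was -0.032 without that dog. The TAP1 row spanned 54178 bases and ended 201 bases before the PSMB9 row, on the opposite strand. In the RefSeq gene order of another dog assembly (UU_Cfam_GSD_1.0) TAP2 and PSMB8 lie next to TAP1 on the side away from PSMB9, and no row here was described as either gene. Whether reads of TAP2 or PSMB8 were counted in the TAP1 row was not tested.

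TAPBP encodes tapasin, the chaperone that bridges class I molecules to the transporter. It was the only one of the 7 genes whose groups did not overlap on the deposited scale. This separation was lost with a common sum, with or without hemoglobin, and with pan-leukocyte scaling. Whether it held with median ratios was not examined. TAPBP measured 117, 107 and 109 FPKM in control dogs and 90.6, 101 and 89.1 FPKM in CPP-Se dogs, so each CPP-Se dog lay below each control dog. After rescaling to a common sum, CPP-Se replicate 2 had the highest TAPBP of the 6 dogs, at 152 FPKM beside 94.8 to 113 in control dogs. As deposited, groups that did not overlap in this direction were found for 12.6% of all tested genes, and in either direction for 23.0%. The means were 111 ± 5.25 and 93.6 ± 6.45 FPKM (SD, n = 3), a log2 fold change of -0.25 (SE 0.17, 95% interval -0.65 to 0.15; limma adjusted p = 0.532), which became -0.091 with a common sum, -0.10 with a common sum without hemoglobin and -0.094 with pan-leukocyte scaling. With median ratios the log2 fold change was -0.24. TAPBP (ENSCAFG00000000972, chromosome 12, 2740276 to 2751808) was also steady within groups as deposited, where 98.5% of tested genes had a larger within-group SD on the log2 scale.

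TAPBPL encodes the tapasin-related editor TAPBPR, which works away from the transporter. The log2 ratio of TAPBP to TAPBPL was 4.34, 4.01 and 4.41 in control dogs and 3.86, 3.97 and 3.45 in CPP-Se dogs. The ratio too was lower in every CPP-Se dog, with means of 4.25 ± 0.21 and 3.76 ± 0.28 (SD, n = 3). The difference of -0.49 had an exact permutation p = 0.1, the smallest possible, and a p of 0.3 adjusted over the 6 pairs.

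PDIA3, or ERp57, is the oxidoreductase that partners tapasin in the loading complex. Of 2 unnamed rows described as this protein, 1 was at 0 in every dog. The other (ENSCAFG00000013214, chromosome 30, 10487921 to 10513397) measured 51.9, 49.1 and 57.0 FPKM in control dogs and 44.7, 53.7 and 51.3 FPKM in CPP-Se dogs. The groups overlapped and the log2 fold change was -0.078 (limma adjusted p = 0.865). Its sign turned when the libraries were scaled to a common sum, to a common sum without hemoglobin, or to pan-leukocyte genes.

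For peptide trimming, the groups overlapped in ERAP1 itself and were apart in its ratio to ERAP2 only without a pseudocount. ERAP1 (ENSCAFG00000007810, chromosome 3, 12879477 to 12919634), which trims peptides to the length that class I holds, measured 15.3, 10.7 and 9.42 FPKM in control dogs and 6.23, 10.5 and 11.3 FPKM in CPP-Se dogs. The highest value was in control replicate 1 and the lowest in CPP-Se replicate 1, and the means were 11.8 ± 3.07 and 9.36 ± 2.73 FPKM (SD, n = 3). The log2 fold change was -0.32 (SE 0.27, 95% interval -0.95 to 0.31; limma adjusted p = 0.608), and it was -0.13 without control replicate 1 and -0.079 without CPP-Se replicate 1. With limma-voom and sample quality weights it was -0.64 (unadjusted p = 0.0439, adjusted p = 0.230). The gene held 158 to 556 reads per dog.

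ERAP2, the related aminopeptidase with other peptide preferences, measured 1.62 to 2.69 FPKM in control dogs and 1.93 to 3.03 FPKM in CPP-Se dogs, on 33 to 121 reads per dog. The log2 ratio of ERAP1 to ERAP2 was 2.51, 2.64 and 2.54 in control dogs and 1.69, 1.80 and 2.49 in CPP-Se dogs. Control dogs lay close together and the groups did not overlap, although CPP-Se replicate 3 lay just below the lowest control dog. The means were 2.56 ± 0.067 and 1.99 ± 0.43 (SD, n = 3), a difference of -0.57 with an exact permutation p = 0.1, which became 0.3 over the 6 pairs. With a pseudocount of 1 on both genes the groups overlapped, since CPP-Se replicate 3 (2.03) lay above control replicate 3 (1.99), and the difference was -0.46 (exact permutation p = 0.2).

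**Figure D2:**
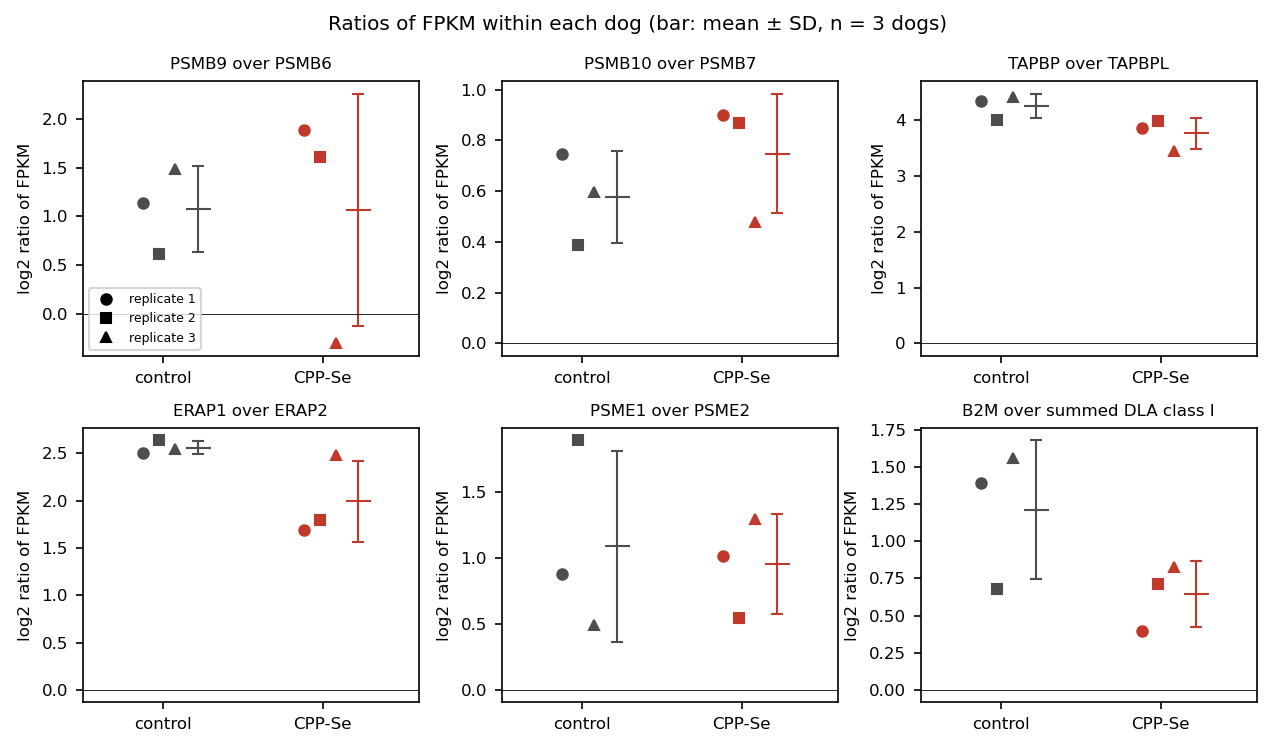
Log2 ratio of FPKM of gene pairs within each dog (y axis, a scale of its own for each pair) in 3 control and 3 CPP-Se dogs; 1 point is 1 dog and the bar is the mean with the SD. With no pseudocount the groups are apart for TAPBP over TAPBPL and for ERAP1 over ERAP2 (the latter overlaps with a pseudocount of 1), and CPP-Se replicate 3 stands alone below 0 for PSMB9 over PSMB6.

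As deposited, the light chain gene B2M and the heavy chain gene DLA88 were both highest in CPP-Se replicate 3 and lowest in CPP-Se replicate 2. They ordered the dogs between differently, and with a common sum they shared neither end. DLA-12 was highest in CPP-Se replicate 1 and lowest in control replicate 2, and DLA-79 was lowest in control replicate 1. B2M (ENSCAFG00000013633, chromosome 30, 11331569 to 11337997) encodes beta-2-microglobulin, the invariant light chain of every class I molecule. It measured 1742, 1626 and 1799 FPKM in control dogs and 1205, 904 and 1854 FPKM in CPP-Se dogs, so CPP-Se replicates 1 and 2 lay below all control dogs and CPP-Se replicate 3 above them. The means were 1722 ± 88.2 and 1321 ± 486 FPKM (SD, n = 3), a log2 fold change of -0.44 (SE 0.31, 95% interval -1.17 to 0.28; limma adjusted p = 0.534). Leaving out CPP-Se replicate 3 gave -0.72 (unadjusted p = 0.0276, limma adjusted p = 0.247), and leaving out CPP-Se replicate 2 gave -0.20. After rescaling to a common sum, CPP-Se replicate 1 had the lowest B2M, at 1108 FPKM, CPP-Se replicate 2 stood at 1365 and CPP-Se replicate 3 at 1572, within the control range of 1439 to 1795.

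DLA88 (ENSCAFG00000000487, chromosome 12, 892388 to 1021690), the dog's classical class I heavy chain gene, ran from 148 to 768 FPKM over the dogs. It measured 387, 762 and 290 FPKM in control dogs and 380, 148 and 768 FPKM in CPP-Se dogs. The groups overlapped throughout, and the log2 fold change of -0.33 (SE 0.61; limma adjusted p = 0.834) became 0.067 without control replicate 2 and 0.29 without CPP-Se replicate 2. DLA-12 (ENSCAFG00000032222, chromosome 12, 932613 to 987561) measured 273, 237 and 314 FPKM in control dogs and 523, 394 and 251 FPKM in CPP-Se dogs, a log2 fold change of 0.45 (SE 0.30; limma adjusted p = 0.513). CPP-Se replicates 1 and 2 were above every control dog for DLA-12 and CPP-Se replicate 3 was within the control range, and the log2 fold change was 0.20 without CPP-Se replicate 1 and 0.73 without CPP-Se replicate 3 (unadjusted p = 0.0184, limma adjusted p = 0.223). The DLA88 row spans 129303 bases and contains the whole DLA-12 row on the other strand, and class I genes are near-identical in sequence, so how their reads were divided is uncertain.

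DLA-79 (ENSCAFG00000008234), a class I gene outside the main cluster, was low at 4.14, 15.4 and 5.65 FPKM in control dogs and 10.7, 9.56 and 29.2 FPKM in CPP-Se dogs. Its log2 fold change of 0.91 (SE 0.53; limma adjusted p = 0.442) came with overlapping groups. It was 0.43 without CPP-Se replicate 3 and 1.41 without control replicate 2 (unadjusted p = 0.0223, limma adjusted p = 0.318), and 1.05 after rescaling to a common sum (unadjusted p = 0.0232, limma adjusted p = 0.446). The log2 ratio of B2M to the summed FPKM of the 3 class I genes was 1.39, 0.68 and 1.56 in control dogs and 0.40, 0.71 and 0.82 in CPP-Se dogs. The means of 1.21 ± 0.47 and 0.65 ± 0.22 (SD, n = 3) differed by -0.57 (exact permutation p = 0.3), and control replicate 2 lay below 2 of the CPP-Se dogs.

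NLRC5 (ENSCAFG00000008933, chromosome 2, 59280390 to 59338931), the transactivator of class I genes, measured 20.2, 23.1 and 16.1 FPKM in control dogs and 28.1, 24.8 and 20.9 FPKM in CPP-Se dogs. CPP-Se replicates 1 and 2 lay above all control dogs, and CPP-Se replicate 3 lay within their range. The means were 19.8 ± 3.54 and 24.6 ± 3.60 FPKM (SD, n = 3), a log2 fold change of 0.30 (SE 0.20, 95% interval -0.17 to 0.78; limma adjusted p = 0.516). It was 0.17 without control replicate 3, 0.46 with a common sum and 0.45 with pan-leukocyte scaling. As for PSMB10, the groups overlapped with a common sum, with or without hemoglobin. They were apart with pan-leukocyte scaling, beside the same 16.6% of all tested genes.

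On the deposited scale, no dog was high or low across the whole set. CPP-Se replicate 1 was the highest of the 6 dogs for PSMB9, PSMB10 and NLRC5 and the lowest for ERAP1. CPP-Se replicate 3 was the highest for B2M and the lowest for TAPBP and PSMB9. Control replicate 3 was the lowest for PSMB10, TAP1 and NLRC5, and control replicate 1 the highest for TAPBP and ERAP1. After rescaling to a common sum, CPP-Se replicate 2 was the highest for TAPBP, TAP1, PSMB10, NLRC5 and ERAP1, and PSMB9 was still highest in CPP-Se replicate 1 and lowest in CPP-Se replicate 3.

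**Figure D3:**
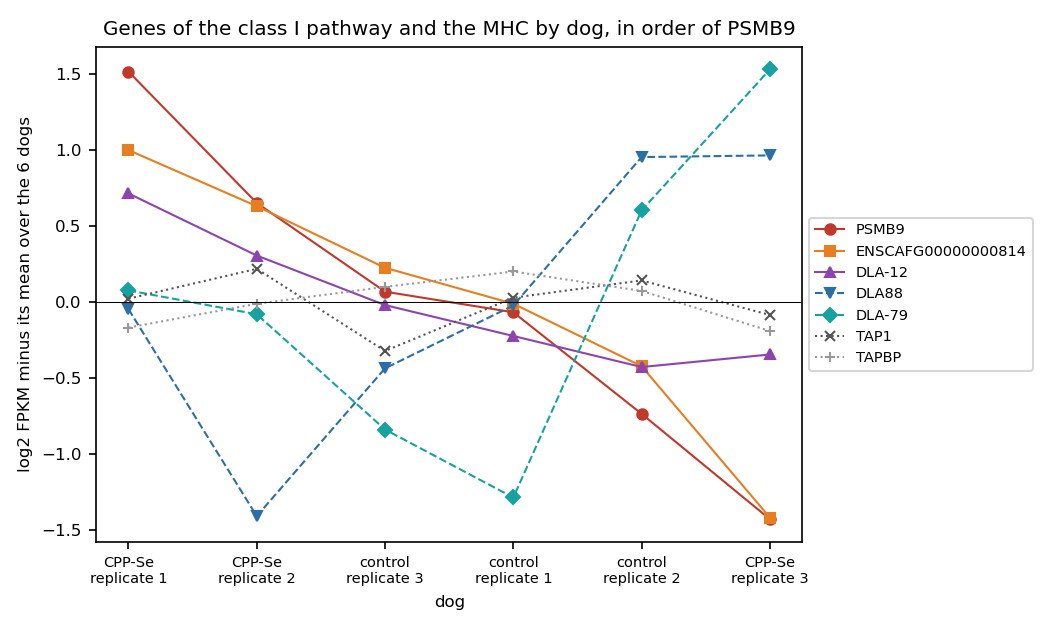
Log2 FPKM minus the gene's mean over the 6 dogs (y axis) for PSMB9, TAP1, TAPBP, the 3 class I genes and 1 class II-described neighbour, with the dogs on the x axis in order of PSMB9; lines join the points of 1 gene only to guide the eye. ENSCAFG00000000814 falls with PSMB9 over all 6 dogs, and DLA-12 does so up to control replicate 2. TAP1 and TAPBP vary less on this deposited scale.

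The wider pathway was described from a list of 37 genes, of which 35 had a row and were tested and 0 passed the threshold. At an unadjusted p below 0.05, SOCS1 and SEC61B had higher means in CPP-Se dogs and IFNGR1 a lower one, 3 of 35 genes beside the 16.0% of all tested genes. On the deposited scale the median log2 fold change was 0.036, with 18 genes above 0 and 17 below. With a common sum, a common sum without hemoglobin and pan-leukocyte scaling, 29, 27 and 28 of the 35 genes lay above 0, while the median over all tested genes moved to 0.13, 0.12 and 0.12. Groups did not overlap for 4 genes that were higher in CPP-Se dogs (SOCS1, SEC61B, PSMB6 and RFXANK) and 3 that were lower (IFNGR1, IRF1 and RFXAP), where the background was 10.4% and 12.6%. None of these 7 stayed apart with a common sum of FPKM, where the background was 10.6% higher and 3.15% lower. With a common sum without hemoglobin and with pan-leukocyte scaling, the 4 higher genes stayed apart and the 3 lower genes did not, where the background was 13.4% and 16.6% higher and 4.84% and 7.39% lower. An unadjusted p below 0.05 was then found for SOCS1 alone with a common sum, for PSMB6, SEC61B and SOCS1 without hemoglobin, and for these 3 and RFXANK with pan-leukocyte scaling, and no adjusted p passed. With median ratios 18 of the 35 genes lay above 0, beside a median of -0.0024 over all tested genes. SOCS1, SEC61B and IFNGR1 then had an unadjusted p below 0.05, beside 1577 of all 9847 tested genes.

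SOCS1, an inhibitor of interferon signalling through JAK kinases, measured 3.70, 1.85 and 5.65 FPKM in control dogs and 27.1, 5.68 and 6.60 FPKM in CPP-Se dogs. The log2 fold change of 1.33 (SE 0.56; limma adjusted p = 0.303) rested largely on CPP-Se replicate 1 and was 0.67 without it. IFNGR1, the ligand-binding chain of the interferon gamma receptor, measured 32.7, 40.6 and 35.2 FPKM in control dogs and 22.4, 28.4 and 25.1 FPKM in CPP-Se dogs. Every CPP-Se dog was below every control dog, and the log2 fold change was -0.50 (unadjusted p = 0.0258, limma adjusted p = 0.258). With a common sum it was -0.35 (limma unadjusted p = 0.351) and CPP-Se replicate 2 was the highest of the 6 dogs. With a common sum without hemoglobin and with pan-leukocyte scaling the groups overlapped, and the limma unadjusted p was 0.217 and 0.0994. With median ratios the log2 fold change was -0.50 (unadjusted p = 0.0273, limma adjusted p = 0.262). IRF1, an interferon-induced transcription factor for class I genes, had a log2 fold change of -0.22 (limma adjusted p = 0.573), which was -0.14 without control replicate 2. It was -0.071 with a common sum, -0.081 with a common sum without hemoglobin, -0.075 with pan-leukocyte scaling and -0.22 with median ratios. JAK2, a kinase of the receptor, stood at -0.40, and at -0.26 with a common sum.

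Among the chaperones and channel subunits, SEC61B of the translocation channel had a log2 fold change of 0.54 (limma adjusted p = 0.253). RFXANK and RFXAP, subunits of the RFX complex that binds MHC promoters, stood at 0.47 and -0.25 on the log2 fold change scale. RFXANK was 0.22 without CPP-Se replicate 1, and RFXAP was -0.13 with a common sum. The cytosolic peptidases THOP1 and BLMH marked the ends of their group at log2 fold changes of 0.36 and -0.37. THOP1 was 0.044 without CPP-Se replicate 3 and 0.71 without CPP-Se replicate 1, and BLMH was -0.60 without control replicate 1 and -0.26 without control replicate 2 or 3. The proteasome activator subunits PSME1 and PSME2, which form a ring that caps the ends of the proteasome core, had a log2 ratio of 1.09 ± 0.72 in control and 0.96 ± 0.38 in CPP-Se dogs (SD, n = 3; exact permutation p = 0.9). The control ratios ran from 0.49 to 1.89, and the difference of -0.13 became 0.27 without control replicate 2 and -0.43 without control replicate 3.

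**Figure D4:**
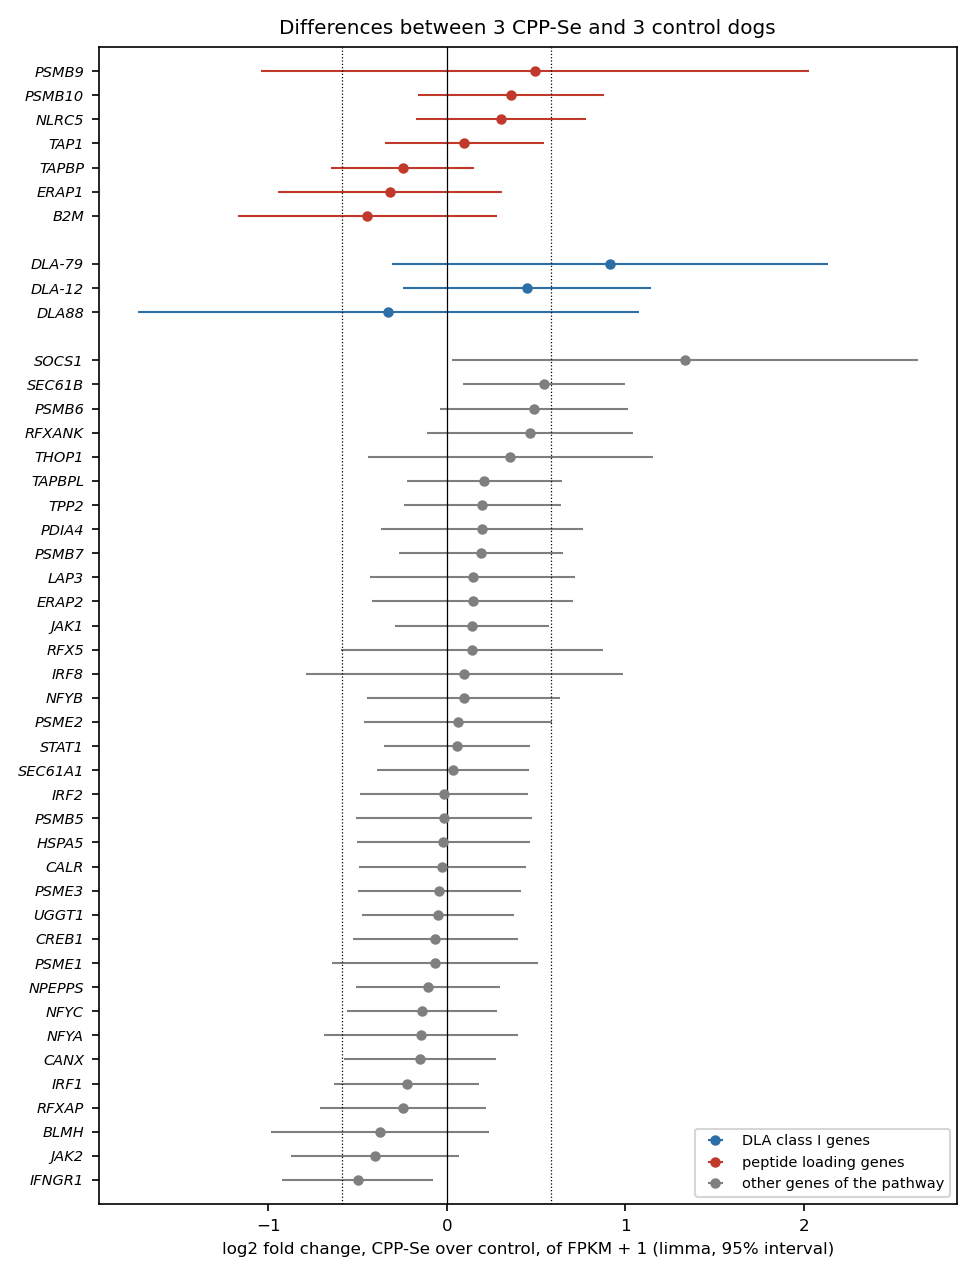
Log2 fold change of FPKM + 1 between 3 CPP-Se and 3 control dogs (x axis) with the limma 95% interval for the 7 peptide loading genes, the 3 class I genes and 35 other pathway genes; the dotted lines mark a fold change of 1.5 in either direction. The intervals of all 7 peptide loading genes and all 3 class I genes include 0, whereas those of SOCS1, SEC61B and IFNGR1 do not.

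Cell type markers moved with the groups beside these genes. At an unadjusted p below 0.05, the threshold of the marker counts given here, 6.87% of all tested genes were higher and 9.10% lower in CPP-Se dogs, and some marker lists lay near these shares. The summed FPKM of 8 T cell markers was 83.2 to 182 in control dogs and 195 to 246 in CPP-Se dogs, with 3 of 8 higher at an unadjusted p below 0.05. The NK and cytotoxic sum was 14.4 to 32.2 and 34.6 to 54.4, with 2 of 6 tested markers higher, and the B cell sum was 277 to 393 and 413 to 457, with 4 of 7 higher. Monocyte markers summed to 535 to 763 in control and 216 to 324 in CPP-Se dogs, with 6 of 6 lower at an unadjusted p below 0.05. Some of these markers, CD6 among them, were picked by the study from these same libraries. The sums overlapped between groups for neutrophil markers (2048 to 2770 and 1639 to 2167), platelet markers (822 to 1729 and 576 to 2070), red cell markers (1310 to 3474 and 2252 to 3347), interferon response genes (69.1 to 159 and 64.7 to 180) and pan-leukocyte genes (1791 to 1906 and 1675 to 2065). At an unadjusted p below 0.05, 3 of 5 neutrophil markers were lower, 0 of 5 platelet markers differed, 2 of 7 red cell markers were higher, and 1 of 11 interferon response genes and 1 of 6 pan-leukocyte genes were lower. No listed marker with a row was at 0 in every dog. The part of cell makeup in the values of the peptide loading genes was not tested.

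The mean z score of the 7 genes over the 6 dogs was 0.45, 0.083 and -0.49 in control dogs and 0.16, 0.13 and -0.33 in CPP-Se dogs. Among the other tested genes with a symbol, the 5 whose log2(FPKM + 1) followed this score most closely were MRPL37 (r = 0.997), S100A8 (0.982), KHDC4 (0.978), NLE1 (0.975) and POU2F2 (0.963), a description over 6 dogs that share their libraries. They were picked for the highest r, so its size is no test, and the 7 genes themselves did not rise and fall together. MRPL37 belongs to the mitochondrial ribosome and S100A8 is an abundant protein of neutrophils and monocytes.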

How the data were processed

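Blood RNA of 3 control and 3 CPP-Se dogs was grouped by the sample labels. Per the study's methods, poly-A RNA was sequenced, and the submitters' processing notes name fastp 0.19.7, HISAT2 2.0.5 and featureCounts 1.5.0-p3. The authors deposited FPKM per gene, and how shared or antisense reads were counted is not given in the sources used here. Every FPKM was a whole multiple of 1 read's worth (tolerance 0.01 reads), so reads were recovered.

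The study tested counts with another tool. Here log2(FPKM + 1) was tested for the 9847 of 31512 genes that averaged 1 FPKM or more, with limma 3.58.1 (R 4.3.3, eBayes with trend, two-sided, Benjamini-Hochberg over all tested genes), and fold changes on this scale understate those of low genes. Calls needed an adjusted p below 0.05 and a fold change of 1.5. Ratios were log2 FPKM differences within a dog, tested by exact permutation (scipy 1.17.1) with adjustment over 6 pairs. The code was tested on simulated data. Alternatives covered the pseudocount, filters, scalings, limma settings, limma-voom on recovered reads, a replicate block and leaving out each dog.

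The genes, the pathway list and 9 marker lists were chosen with earlier results of these data known. Named were every peptide loading and class I gene, pathway genes past the threshold and the 5 highest and 5 lowest fold changes, ratio partners, the 5 genes most like the set, and neighbours of TAP1, PSMB9 and TAPBP. The library size behind the FPKM, as recovered, did not follow the reads on genes in CPP-Se replicate 2, and its source is not given in the sources used here.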

Additional observations from a re-analysis of the deposited data

How the results depend on the processing

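None of the 7 peptide loading genes, 3 class I genes and 35 pathway genes passed the threshold in any of 19 alternatives in which they were tested (25 of the 35 with a mean of at least 5 FPKM). The lowest adjusted p of a peptide loading gene was 0.190 (PSMB9 without CPP-Se replicate 3). Of 21 single-gene fold changes under these alternatives, 389 values kept direction and side of the threshold and 7 changed sign. PSMB9 ran from -0.13 to 1.31, TAP1 from -0.032 to 0.19 and DLA88 from -0.89 to 0.29 (log2) with 1 dog left out. The row described as PDIA3 was 0.076, 0.066 and 0.072 with scaling to a common sum, a common sum without hemoglobin and pan-leukocyte genes. These scalings moved the median log2 fold change of all genes to 0.13, 0.12 and 0.12, from -0.0043, and no sign of the 7 genes turned under them. Median ratios gave an all-gene median of -0.0024. The PSMB9 over PSMB6 difference was 0.0038 with a pseudocount of 1 and ran from -0.43 to 0.67 with 1 dog left out, and PSME1 over PSME2 from -0.43 to 0.27. The other ratio differences kept their sign with 1 dog left out, from 0.077 to 0.31 for PSMB10 over PSMB7, -0.61 to -0.34 for TAPBP over TAPBPL, -0.82 to -0.42 for ERAP1 over ERAP2 and -0.83 to -0.39 for B2M over summed class I. Unadjusted p-values fell below 0.05 for PSMB10 with pan-leukocyte scaling, for ERAP1 with voom quality weights, and for B2M and PSMB9 without CPP-Se replicate 3. The same held for DLA-79 with a common sum, a common sum without hemoglobin, voom quality weights and without control replicate 2, and for DLA-12 with voom quality weights and without CPP-Se replicate 3. With a common sum, TAPBP was -0.091 (from -0.25), TAP1 0.25 (from 0.10), B2M -0.29 (from -0.44), ERAP1 -0.17 (from -0.32) and DLA88 -0.17 (from -0.33). With median ratios they were -0.24, 0.10, -0.44, -0.32 and -0.33. Over all genes, 3 calls (0 higher, 3 lower) became 12 (8 higher, 4 lower) with a common sum, 156 (52 higher, 104 lower) with voom quality weights, 14 without CPP-Se replicate 2, and 0 to 3 otherwise. The causes were not tested.

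The replicate numbers did not pair the dogs: correlations of same-numbered deviations were -0.090 to 0.016, and 0 of 3 control dogs correlated best with their own number. With the replicate block, all-gene calls went from 3 to 1, peptide loading genes stayed at 0 with a lowest adjusted p of 0.475 (PSMB10), and the exact p of TAPBP over TAPBPL (-0.49) and of ERAP1 over ERAP2 (-0.57) went from 0.1 to 0.25, the smallest that 3 pairs allow. The block cannot change a difference of means in this balanced design. Precision is limited by 3 dogs a group, by the unexplained library size of CPP-Se replicate 2 and by the few reads behind ERAP2 (33 to 121).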

Other observations

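Genes near PSMB9 in the MHC were looked at after the values of PSMB9 had been seen. ENSCAFG00000000814 (chromosome 12, 2244820 to 2251662), a row described as a class II gene, measured 44.3, 33.3 and 52.1 FPKM in control dogs and 89.3, 69.1 and 16.7 FPKM in CPP-Se dogs. Its order of dogs was that of PSMB9, with CPP-Se replicate 1 highest and CPP-Se replicate 3 lowest. Of 61 tested rows from DLA88 to TAPBP, 3 had this order, namely PSMB9, ENSCAFG00000000814 and NFKBIL1, and 28 of all 9847 tested genes had it. Another class II-described row, ENSCAFG00000000806 (chromosome 12, 2306185 to 2307866), ran from 0 in control replicate 3 to 87.5 FPKM in CPP-Se replicate 3, with 51.7 FPKM in control replicate 2. A spread of at least 3-fold between the highest and the lowest dog, or a dog at 0, was found for 20 of the 61 rows (32.8%), beside 30.4% of all tested genes.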
